A study of Mus musculus with 2 samples.

Results

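The 44 genes described here encode the machinery that copies DNA: the origin recognition complex, the licensing factors, the MCM and GINS helicase parts, the sliding clamp and its loader, the replicative polymerases, the single-strand binding protein RPA, the Okazaki fragment enzymes and the core of deoxynucleotide supply. The members are a list of genes named for their role, with no threshold on a measured value, and all 44 were found by symbol among 43346 annotated mouse genes. Total RNA was sequenced from the facial prominence, the paired swellings around the primitive mouth that form the face and jaws, of healthy B6NCrl mouse embryos at 11.5 days. There was 1 group with 2 biological replicates. Library 1 came from 109 male and female embryos pooled together, and library 2 from a further pool of 88. Each library was made from 10 ng of RNA above 200 nt with synthetic spike-in RNA added. No other tissue, age or treatment was part of the series, so no test between conditions was possible, and each value below is given per library.

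Replication is prepared before S phase, when the origin recognition complex with Cdc6 and Cdt1 loads pairs of MCM2-7 rings onto DNA, a step called licensing. In S phase, Cdc45 and GINS join each ring to form the active helicase. Polymerase alpha-primase starts each new strand, and polymerase epsilon and polymerase delta extend the leading and the lagging strand, held to DNA by the clamp PCNA, which the loader RFC opens and closes. Many of these genes are known targets of E2F transcription factors, which switch them on as cells enter the cycle. At midgestation the facial mesenchyme, largely derived from neural crest, is known as a rapidly growing tissue.

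The upstream sequence of these genes was examined first, since E2F binding there is the best known feature that replication genes share. RefSeq promoter windows of 300 bases (GRCm38.p6, from 250 bases before to 50 bases after an annotated start) were found for 36 of the 44 genes, in 44 windows. The search covered both strands for the E2F cores TTCCCGC and TTGGCGC, and merged matches that overlapped. Across all 32851 windows of the table, 6.81% held such a core. Among the 44 windows of the replication genes, 22 did, and among the windows of protein-coding genes detected in this tissue the share was 11.9%. By gene, 21 of the 36 matched replication genes had a core, against 14.4% of the 9861 detected protein-coding genes. A match describes letters in a window and is not a measured binding site.

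The 4 windows below are printed because they held the most cores. Ties at 2 cores were settled by the higher level in the tissue. Each runs 5′ to 3′ on the gene's strand, with the cores in capitals. The Pola1 window lies at chrX:93632106-93632405, Mcm6 at chr1:128359656-128359955, Mcm7 at chr5:138171834-138172133 and Mcm3 at chr1:20820263-20820562, all on the minus strand.
Pola1: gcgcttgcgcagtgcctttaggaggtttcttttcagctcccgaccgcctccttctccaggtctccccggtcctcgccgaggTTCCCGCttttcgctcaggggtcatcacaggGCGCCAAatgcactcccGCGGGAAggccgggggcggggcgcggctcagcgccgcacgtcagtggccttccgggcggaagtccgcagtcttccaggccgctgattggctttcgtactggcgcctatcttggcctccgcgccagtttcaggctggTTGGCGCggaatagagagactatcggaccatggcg
Mcm6: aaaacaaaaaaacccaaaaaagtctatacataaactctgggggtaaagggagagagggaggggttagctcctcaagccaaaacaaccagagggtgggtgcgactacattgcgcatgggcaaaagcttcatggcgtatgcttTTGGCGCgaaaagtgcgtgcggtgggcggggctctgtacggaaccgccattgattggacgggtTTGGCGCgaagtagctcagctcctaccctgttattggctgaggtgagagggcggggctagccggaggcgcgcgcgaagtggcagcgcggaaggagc
Mcm7: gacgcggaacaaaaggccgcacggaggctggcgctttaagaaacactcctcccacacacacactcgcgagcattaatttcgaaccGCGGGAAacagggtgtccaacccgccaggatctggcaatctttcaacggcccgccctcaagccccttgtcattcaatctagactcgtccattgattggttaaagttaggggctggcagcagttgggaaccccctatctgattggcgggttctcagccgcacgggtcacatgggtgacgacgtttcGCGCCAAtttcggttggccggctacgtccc
Mcm3: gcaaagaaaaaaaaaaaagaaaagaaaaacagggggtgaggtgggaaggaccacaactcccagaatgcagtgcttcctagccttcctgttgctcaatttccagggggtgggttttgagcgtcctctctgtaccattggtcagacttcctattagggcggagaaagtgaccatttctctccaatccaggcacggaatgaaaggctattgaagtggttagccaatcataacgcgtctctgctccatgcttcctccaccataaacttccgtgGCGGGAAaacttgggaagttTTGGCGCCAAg
Counting the first transcribed base as 1 and the base before it as -1, the cores of Pola1, the catalytic subunit of polymerase alpha, began at -169, -138, -121 and 16. In Mcm6 both cores read TTGGCGC on the printed strand and began at -109 and -46. The printed Mcm7 window had cores at -165 and 21, and a further Mcm7 start had 1 core at -113. Mcm3 had both of its cores after the start, at 20 and 40, the second a palindrome in which matches on both strands overlap.

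The cores were spread over most of the complexes. Of the 5 matched MCM2-7 genes, 4 had one (Mcm3, Mcm5, Mcm6 and Mcm7, but not Mcm2). Both matched licensing genes, Cdc6 and Cdt1, had one, as did 3 of 4 matched RFC genes (Rfc1, Rfc3 and Rfc4) and 2 of 3 RPA genes (Rpa2 and Rpa3). In the origin recognition complex only Orc3 and Orc4 of 6 did. Neither Cdc45 nor Mcm10 held these letters in its window, nor did Pcna, Rrm2 or Tyms, which were among the 4 most abundant of the 44 genes. In these windows 30 cores were counted, 17 before the start and 13 after it. The matched genes with a core had a median level of 106.0 TPM (a level adjusted for transcript length and library total; range 16.6 to 265) and the 15 without had 82.0 TPM (range 14.6 to 305), so the ranges overlapped almost entirely. No window was matched for Gmnn, Mcm4, Gins1, Gins2, Gins4, Rfc2, Prim2 or Pole.

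CCAAT, the box bound by the factor NF-Y, occurred on either strand in 25 of the 44 windows (56.8%), against 37.4% of all windows and 38.0% of those of detected protein-coding genes. By gene, 21 of the 36 had an E2F core, 23 had a CCAAT box and 13 had both, in Orc4 in different windows. In Mcm7, Rfc1 and Prim1 a core and a CCAAT box share letters, and in Prim1 that is the only box. The counts of these motifs are therefore not independent. The share of all genes with both was not counted, so the 13 are a description only. The CHR element (TTTGAA or TTCGAA), known from genes of late S phase and mitosis, was in 7 of the 44 windows (15.9%), against 19.2% of all windows and 13.6% of those of detected genes. The share of windows with CHR was thus close to the background, while E2F cores were several times as frequent as in the background.

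**Figure D1:**
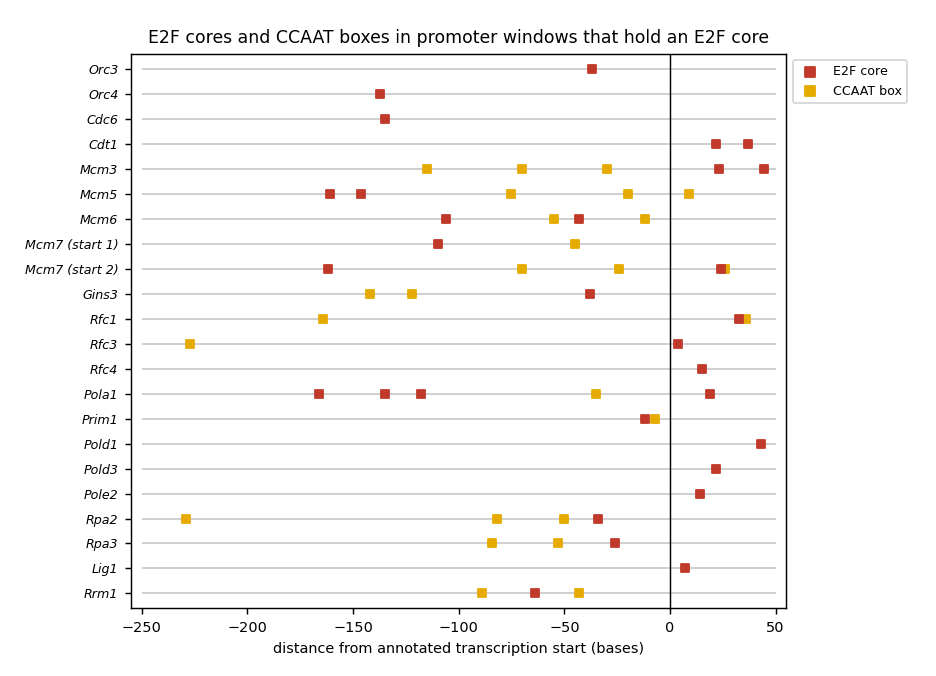
Positions of E2F cores (red) and CCAAT boxes (yellow) in the 22 promoter windows that hold an E2F core, in bases from the annotated start (0), with 1 grey line per window. Pola1 has 4 cores, and 13 of the 30 cores lie after the start.

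A second feature of position was shared by some members. In 12 of the 44 genes the start lay within 1000 bases of the start of a protein-coding gene on the other strand, which was so for 15.9% of detected protein-coding genes. Orc3 and Rars2, a mitochondrial tRNA ligase gene, start 13 bases apart, and stood at 95.3 and 102 TPM against 62.1 and 60.7 TPM. Orc1 and the splicing gene Prpf38a start 87 bases apart, yet Orc1 stood at 13.3 and 15.8 TPM and Prpf38a at 95.2 and 104 TPM. For Mcm4 and Prkdc, the DNA repair kinase gene 466 bases away, the order was the other way round, with Mcm4 at 158 and 163 TPM and Prkdc at 9.73 and 9.80 TPM. Being neighbours at the start therefore went with levels on either side of each other.

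All 44 genes were expressed well above detection. Each reached 10 TPM in both libraries, which 36.8% of the 21474 protein-coding genes did. At 50 TPM or more in both libraries stood 32 of the 44, against 13.4% of protein-coding genes, and at 100 TPM or more 19, against 6.62%. Their median level was 93.5 TPM in library 1 and 98.7 TPM in library 2, 96.1 ± 3.62 (SD, n = 2). The median over the members' mean levels was 95.9 TPM, where the median protein-coding gene had 3.45 TPM. Read counts per gene and library ran from 727 to 16003, so counting error was small for most members. The tissue is a mixture of cell types, in which fewer cycling cells and less RNA per cell cannot be told apart.

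The spread among members was nonetheless 20.96-fold between the lowest, Orc1 (chromosome 4, 108579423 to 108614833), and the highest, Pcna (chromosome 2, 132249162 to 132253314). By median level the clamp stood first at 305 TPM, followed by nucleotide supply at 265 and MCM2-7 at 163 TPM. RPA (128 TPM), the clamp loader (117) and the Okazaki fragment enzymes (104) came next. GINS (79.1), polymerase delta (77.98) and the origin recognition complex (68.7) followed. Helicase activation (53.1), polymerase alpha-primase (51.9) and the licensing factors (42.3) were lower, and polymerase epsilon (28.8 TPM) was last. This order holds for the member genes only, which for polymerase epsilon are Pole and Pole2. Its further subunits Pole3 (78.4 TPM) and Pole4 (88.2 TPM), which are not members, stood well above that median. Pold4 (8.6 TPM), also not a member, stood far below the median of polymerase delta.

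**Figure D2:**
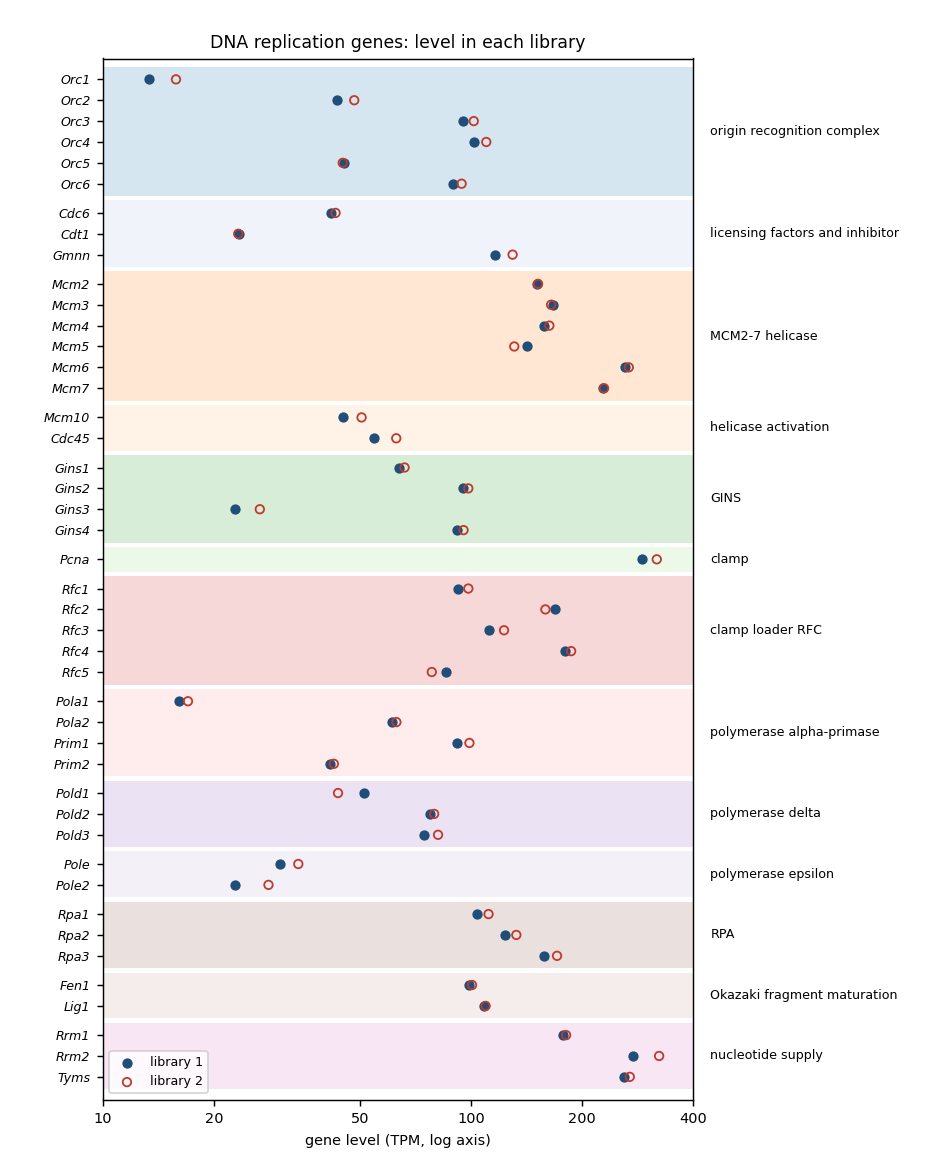
Level of each of the 44 genes in TPM (log axis) in library 1 (filled) and library 2 (open), grouped by complex. Orc1, Pola1, Cdt1, Gins3 and Pole2 lie lowest, Pcna, Rrm2, Mcm6 and Tyms highest, and in most genes the libraries lie close together beside the spread between genes.

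Within the origin recognition complex, which marks the sites where replication can start, levels were far from equal. Orc1, the subunit known to come and go with the cell cycle, was lowest at 13.3 and 15.8 TPM in libraries 1 and 2. Orc2 stood at 43.2 and 48.2 TPM and Orc5 at 45.3 and 44.8 TPM. Their order relative to each other differed between the libraries, so they were not distinguishable. Orc6, known for a second role in cell division, had 89.3 and 94.3 TPM, Orc3 95.3 and 102 TPM, and Orc4 was highest at 102 and 110 TPM. The ratio of Orc4 to Orc1 was 7.66 in library 1 and 6.97 in library 2 (7.31 ± 0.488, SD, n = 2), and Orc1 was lowest in both.

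The licensing factors showed an excess of inhibitor RNA over that of its target. Gmnn, which encodes geminin, the protein that binds Cdt1 and blocks relicensing, stood at 116 and 130 TPM. Cdt1, the MCM loading factor that geminin binds, stood at 23.4 and 23.3 TPM, near the lower end of the 44 genes. Cdc6, the loading ATPase, lay between them at 41.7 and 42.8 TPM. The Gmnn to Cdt1 ratio was 4.97 and 5.56 (5.27 ± 0.420, n = 2), and that of Cdc6 to Cdt1 was 1.78 and 1.84.

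MCM2-7, the hexameric ring of the replicative helicase, was the most evenly and most highly expressed of the complexes with more than 3 genes. Mcm6 was highest at 262 and 268 TPM and Mcm7 next at 228 and 230 TPM. The other 4 genes lay close together: Mcm3 had 167 and 165 TPM and Mcm4 158 and 163 TPM. Mcm2 followed at 151 and 152 TPM, and Mcm5 was lowest at 142 and 131 TPM. That order of all 6 genes was the same in both libraries, and the ratio of highest to lowest was 1.85 and 2.05. The subunits occur once each in the ring, so the RNA was within about that factor of equal amounts. Mcm2 exceeded Orc2 by 3.33 ± 0.248-fold (n = 2). The paralogs Mcm8 and Mcm9, which act in recombination and not in this ring, were far lower at 19.3 and 18.8 TPM and at 4.54 and 4.91 TPM.

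The factors that turn a loaded ring into a moving helicase were less abundant than the ring. Cdc45, a helicase subunit, had 54.5 and 62.6 TPM, which was 0.360 and 0.412 of the Mcm2 level. Mcm10, needed for the step in which the helicase starts to move, had 44.8 and 50.4 TPM. Among GINS genes, Gins2 (94.9 and 98.3 TPM) and Gins4 (91.4 and 95.4 TPM) were close to each other. Gins1 had 63.8 and 66.0 TPM. Gins3 was lowest at 22.9 and 26.7 TPM, although the protein complex holds 1 copy of each. The Gins2 to Gins3 ratio was 4.14 and 3.68, and this pair is taken up again with the transcript types.

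Pcna, the ring that tethers polymerases to DNA, was the most abundant of all 44 genes at 291 and 320 TPM. A processed pseudogene, Pcna-ps2, was listed at 2.20 and 1.93 TPM. Of the clamp loader genes, Rfc4 (180 and 187 TPM) and Rfc2 (169 and 159 TPM) were high and Rfc3 stood at 112 and 123 TPM. Rfc1, the large subunit specific to this loader, had 92.2 and 98.3 TPM, and Rfc5 was lowest at 85.7 and 78.2 TPM. The large subunits that replace Rfc1 in the alternative loaders were lower. Chtf18, of the cohesion loader, had 16.6 and 14.5 TPM, Atad5, of the PCNA unloader, 15.3 and 17.0 TPM, and Rad17, of the checkpoint loader, 23.4 and 28.5 TPM. Rfc1 exceeded Chtf18 by 6.18 ± 0.877-fold, Atad5 by 5.91 ± 0.158-fold and Rad17 by 3.69 ± 0.341-fold (n = 2 each).

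In polymerase alpha-primase, and among the 3 member genes of polymerase delta, the gene of the catalytic DNA polymerase subunit was the lowest. Pola1 stood at 16.1 and 17.0 TPM. Its partners stood higher, with Pola2, the accessory subunit, at 61.1 and 62.7 TPM, the primase small subunit Prim1 at 91.6 and 99.0 TPM and the large subunit Prim2 at 41.3 and 42.4 TPM. The Prim1 to Pola1 ratio was 5.67 and 5.82. Pold1, the catalytic subunit of polymerase delta, had 51.1 and 43.5 TPM, below Pold2 (77.5 and 79.4 TPM) and Pold3 (74.6 and 81.4 TPM), which changed places between libraries. Pold4, the smallest subunit, was lower still at 8.60 and 8.63 TPM, so Pold2 exceeded it by 9.11 ± 0.130-fold (n = 2). Pole, the catalytic subunit of polymerase epsilon, had 30.3 and 33.9 TPM, and Pole2 had 22.8 and 28.2 TPM. The histone-fold subunits Pole3 and Pole4 stood above both, at 77.7 and 79.1 TPM and at 89.2 and 87.1 TPM. They were 2.45 ± 0.168 and 2.76 ± 0.269 times the Pole level (n = 2 each).

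RPA, the heterotrimer that coats single-stranded DNA, was fairly even. Rpa1, the large subunit, had 104 and 112 TPM, Rpa2 124 and 133 TPM, and Rpa3, the smallest, 158 and 171 TPM, in the same order in both libraries. The Okazaki fragment enzymes were close to each other. Fen1, the flap nuclease, had 98.6 and 101 TPM and Lig1, the ligase that seals the fragments, 109 and 110 TPM, a ratio of 1.101 and 1.088. Lig3, which can stand in for Lig1, had 33.7 and 36.1 TPM, and Lig4, the ligase of end joining, 7.58 and 7.14 TPM. Of the RNase H2 genes, whose enzyme takes out RNA within DNA, Rnaseh2c was highest at 112 and 113 TPM.

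Nucleotide supply was among the most abundant functions. Rrm1, the large subunit of ribonucleotide reductase, had 178 and 181 TPM, and Rrm2, its S phase small subunit, 275 and 324 TPM. Rrm2b, the small subunit used outside S phase and after DNA damage, had only 5.16 and 5.25 TPM, a Rrm2 to Rrm2b ratio of 57.6 ± 5.94 (n = 2). Tyms, thymidylate synthase, had 260 and 270 TPM over all its transcripts. Dctpp1 (191 and 200 TPM) and Dtymk (186 and 205 TPM), which clean up and phosphorylate nucleotides, were near the Rrm1 level.

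Further genes related to the pathway, 59 in all, gave a frame for these levels. In both libraries 57 of them reached 1 TPM, and their median was 39.2 TPM. Among initiation and fork partners the fork protection gene Tipin was highest at 184 and 198 TPM and Recql4, a helicase of initiation, lowest at 4.70 and 3.99 TPM. Histone chaperones of the fork ran from Chaf1b at 98.3 and 103 TPM down to Chaf1a at 29.1 and 27.6 TPM. Alternative loader genes had their highest level in Chtf8, at 109 and 106 TPM. Translesion polymerase genes were low, with a median of 7.97 TPM. Of these, Polk was lowest at 5.08 and 5.62 TPM and Mad2l2, which also acts in mitosis and end protection, highest at 63.3 and 56.9 TPM.

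The 2 genes under 1 TPM were the geminin paralogs of multiciliated cells. Gmnc had no count in either library, which at 3 counts allows up to 0.0367 TPM in library 1 and 0.0361 TPM in library 2. Mcidas had 2 counts in library 1 and none in library 2. Gmnn, from the same family, stood above 100 TPM in both. The 8 genes of mitosis had a median of 181 TPM and ran from Cdk1, the mitotic kinase, at 381 TPM in both libraries to Bub1, a spindle checkpoint kinase, at 23.5 and 28.5 TPM.

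The ratio of library 2 to library 1 was then computed per gene from counts scaled by TMM, a method that assumes most genes are equal, with exact 95% intervals that cover counting error only. The members' ratios ran from 0.917 to 1.25, with a median log2 ratio of 0.08. No more than 3 reached 1.2-fold, all higher in library 2. Among protein-coding genes with 20 or more counts, 10.1% did so in that direction and 25.3% in either. Those members were Pole2 (747 and 938 counts; ratio 1.25, interval 1.14 to 1.38), Orc1 (1.22, 1.11 to 1.35) and Rrm2 (11526 and 13883 counts; 1.202, 1.17 to 1.23). After scaling by total counts or by spike-in RNA, Pole2 alone stayed at 1.2-fold or more (1.23 and 1.203), with Orc1 at 1.198 and 1.17 and Rrm2 at 1.18 and 1.15. Pole2 and Orc1 are among the members with the fewest counts, whereas Rrm2 is among those with the most. Among 7180 protein-coding genes with at least 1500 counts, a limit set after the members' counts were known, 3.11% were as much higher in library 2, 2.69% as much lower, and 5.79% differed so much either way. The members' median absolute log2 ratio was 0.09, and that of these abundant genes was 0.09 as well.

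The direction was shared by most members. A ratio above 1 was found in 39 of the 44, against 49% of protein-coding genes with 20 or more counts and 56.6% of the abundant ones. The interval lay wholly above 1 in 26 members (background 21.7% and, among abundant genes, 32.1%). It lay below 1 in 3 members, against 20.3% of genes with 20 or more counts and 20.1% of the abundant ones. These were Pold1 (2065 and 1898 counts; 0.917, 0.861 to 0.977), Mcm5 (9678 and 9089 counts; 0.937, 0.911 to 0.964) and Rfc2 (0.958, 0.920 to 0.997). The count of ratios above 1 depended on the scaling: 34 members were higher in library 2 after scaling by total counts and 28 after scaling by spike-in RNA. The median log2 ratio was then 0.05 and 0.02. A change of scaling shifts the ratio of every gene by the same factor. The background share above 1 was counted under TMM only, so 34 and 28 cannot be set against it. Under TMM the share of related genes with a ratio above 1 differed by list. These counts give direction only, and some of the intervals include 1. That was so for all 3 further polymerase subunits, with ratios of 1.01 to 1.02. Higher in library 2 were 13 of 14 initiation and fork partners, 8 of 8 nucleotide supply partners, 3 of 3 further polymerase subunits and 3 of 4 histone chaperones. In other lists the counts were 3 of 5 alternative clamp loader genes, 3 of 6 genes of primer removal and ligation, 4 of 7 translesion genes and 5 of 8 mitotic genes, and 2 of the 4 paralogs, of which Gmnc had no counts.

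Within complexes the ratios were not uniform. Mcm5 was lower in library 2 while Mcm4 (1.05, 1.02 to 1.08) and Mcm6 (1.036, 1.014 to 1.060) were higher, and these intervals did not overlap. In the clamp loader, Rfc3 (1.135, 1.077 to 1.196) and Rfc2 stood apart in the same way. In polymerase delta, Pold3 (1.09, 1.04 to 1.14) and Pold1 did so too. Mcm10 (1.16) and Cdc45 (1.16) had nearly equal ratios, as had Rpa1 (1.07), Rpa2 (1.09) and Rpa3 (1.104). These intervals cover counting error only. The members' ratios spread by more than that (chi-square per degree of freedom 8.38), as did those of genes at large (8.34 over 18163 genes). Each pool gave a single library, so the ratio measures how the libraries differ. Differences between the pools and between the library preparations cannot be told apart.

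Markers of cell types were compared between the libraries in the same way, with direction by TMM-scaled counts and summed levels in TPM. The heart and liver genes were listed as markers of tissue outside the dissection. All 5 neuronal markers were lower in library 2 (median log2 ratio -0.29, summed level 498 and 422 TPM), as were all 5 of surface epithelium (-0.14, 214 and 186 TPM) and all 4 of macrophages (-0.13, 67.3 and 62.4 TPM). Endothelium was lower in 4 of its 5 (-0.14, 125 and 116 TPM) and erythroid cells in 4 of 5 (-0.10, 11168 and 10272 TPM). All 4 skeletal muscle markers were higher in library 2 (0.43, 94.6 and 154 TPM). Of these, Actc1 moved most, from 43.3 to 87.0 TPM, and the interval of Myod1 (0.874 to 1.28) included 1. Of the heart and liver markers, 3 of 4 were higher in library 2 (1.81, 8.83 and 35.3 TPM). The 6 facial mesenchyme markers, defined by genes such as Msx1 and Alx1, were split 3 and 3 (-0.04, 823 and 780 TPM) and all were expressed. In the heart and liver list the liver gene Alb was near 0, at 0.15 and 0.54 TPM. The atrial gene Nppa was at 1.46 and 14.7 TPM and Myl7 at 5.76 and 19.1 TPM, while Apoa1 went from 1.46 to 0.92 TPM. No marker in any of these lists was at 0, and the part of these cell types in the members' ratios was not tested.

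**Figure D3:**
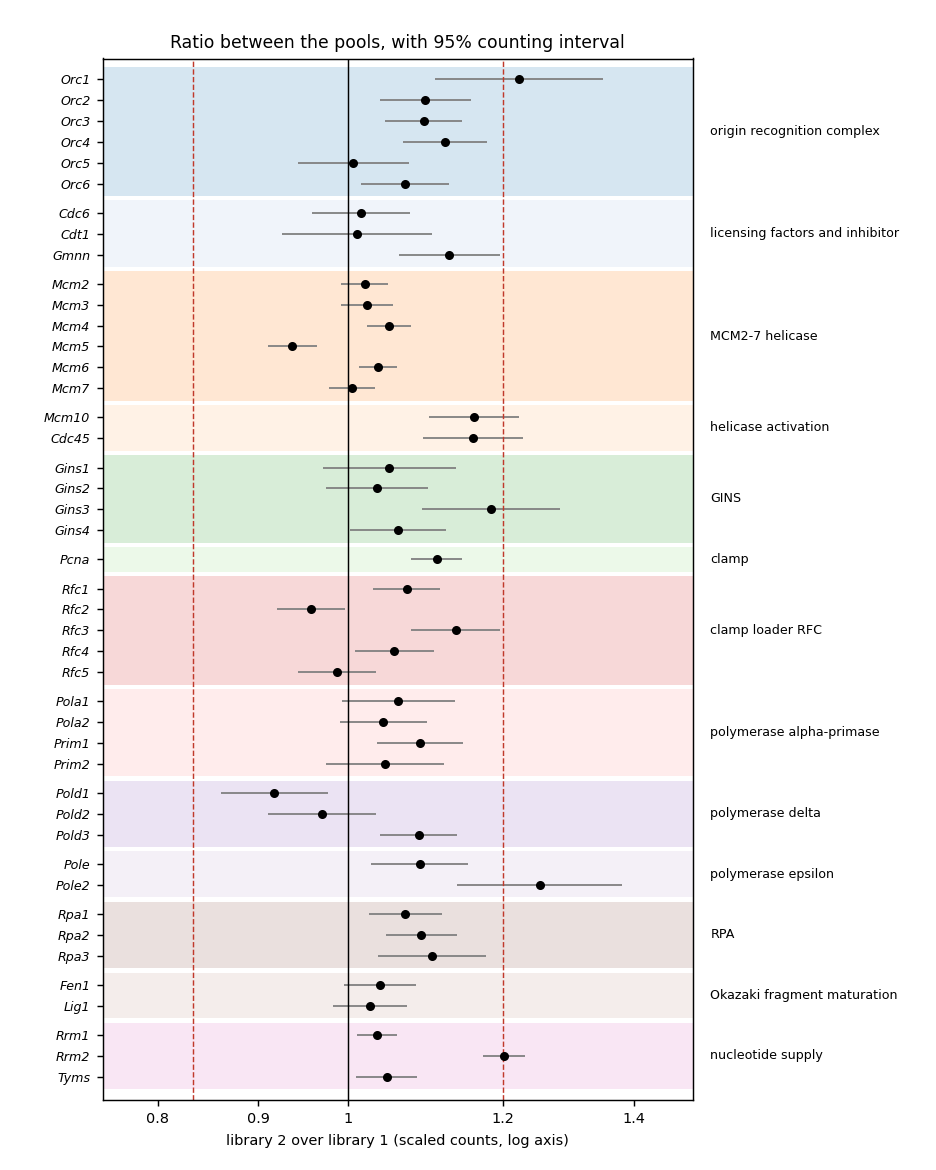
Ratio of library 2 to library 1 for each gene (log axis, TMM-scaled counts), with exact 95% counting intervals as bars. Dashed lines mark a 1.2-fold difference either way and the solid line a ratio of 1. Points lie to the right of 1 in 39 of 44 genes, Pole2 farthest, and Pold1 lies farthest left.

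Transcripts were examined next, because a gene's level adds up models that need not all encode the protein. The 44 genes had 215 annotated transcripts, of which 10 had no type in the annotation used here (6 of Rfc1, 3 of Pold1 and 1 of Pold3). A single transcript was annotated for 9 members. Of the 35 with more, 33 had the same most abundant transcript in both libraries, against 93.7% of protein-coding genes with 2 or more transcripts and a mean of 10 TPM. In 7 of the 35 it held less than 50% of the gene's TPM in a library, where the background was 24.6%. Among the 32 whose transcripts all had a type, protein-coding transcripts held a median of 92.6% of the gene's TPM and 94.3% of its counts. In the 5815 background genes these were 94.6% and 97.9%.

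For Orc4, Gins2 and Tyms, 3 of those 32, the most abundant transcript in both libraries was not annotated as protein-coding, against 6.43% of background genes. The same 3 were those in which protein-coding transcripts held under 50% of TPM, against 8.2%. In Gins2 the retained-intron transcript Gins2-204, of 511 nt, held 74.2% and 74.3% of TPM, with 594 and 628 counts. The protein-coding Gins2-201, of 3900 nt, held 18.2% and 18.7% of TPM but 63.4% and 66.4% of counts. TPM divides by length, so the short model weighs far more in TPM than in counts. In Tyms the protein-coding Tyms-201, of 3163 nt, held 10.7% and 10.3% of TPM and 29.7% and 28.6% of counts. Its leading transcript changed from Tyms-205, of 797 nt and annotated for nonsense-mediated decay (42.2% and 40.0%), to the retained-intron Tyms-202, of 816 nt (38.6% and 42.1%). Both values lay near 40%, so the change of rank was small.

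Orc4, with 13 transcripts the most of any member, was the third. Orc4-212, a processed transcript of 1477 nt without an annotated reading frame, held 30.8% and 28.0% of TPM. Protein-coding Orc4-201, of 4066 nt, held 16.8% and 18.1% of TPM and 46.0% and 48.4% of counts, and was thus first by counts. Counting protein-coding transcripts only, Orc4 came to 26.1 and 29.2 TPM. In Rfc1 the leading model had no type, was 485 nt long and held 38.8% and 28.7% of TPM, with 5.80% and 4.34% of counts. By counts a model of 4751 nt, also without a type, led at 44.5% and 34.9%. The share of Rfc1 on protein-coding transcripts was therefore not known.

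The other members with a split or a change were coding in the main. Fen1 had 4 protein-coding models that differ in length by under 300 nt. Fen1-203 went from 33.7% to 20.1% of TPM and Fen1-202 from 32.2% to 41.2%, with Fen1-201 at 30.4% and 37.2%. The estimation error of these counts was 135 to 193 reads on 866 to 1749. In Lig1, with 12 transcripts, Lig1-201 of 3091 nt led at 35.2% and 33.9% of TPM and 58.0% and 55.8% of counts. The short Lig1-206 held 24.7% and 14.8% and Lig1-212 24.5% and 33.7% of TPM. For these 2 transcripts the estimation error was 89 to 101 reads on 286 to 735. Orc3, with 11 transcripts, was divided between Orc3-201 (36.9% and 38.0%) and Orc3-202 (35.2% and 32.3%), both protein-coding.

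Pole had 39.9% and 38.7% of its TPM on Pole-201, the full-length model of 7163 nt, which carried 76.0% and 77.3% of counts. The retained-intron Pole-206 held 35.1% and 24.3% of TPM. Pole-202 was listed at 0 in library 1 and at 13.9% in library 2, with an estimation error of 32 and 47 reads on 0 and 140. Pold1, with 12 transcripts, had 51.0% and 54.8% of TPM and 86.8% and 88.0% of counts on Pold1-201, and 28.1% and 29.7% of TPM on the retained-intron Pold1-209 of 532 nt. Retained-intron models also held part of Rpa1, whose protein-coding share averaged 56.3% of TPM and 85.8% of counts, and of Mcm10 (66.7% and 85.5%). Shares on such models are estimates from total RNA, and unspliced RNA was not told apart from intron retention.

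**Figure D4:**
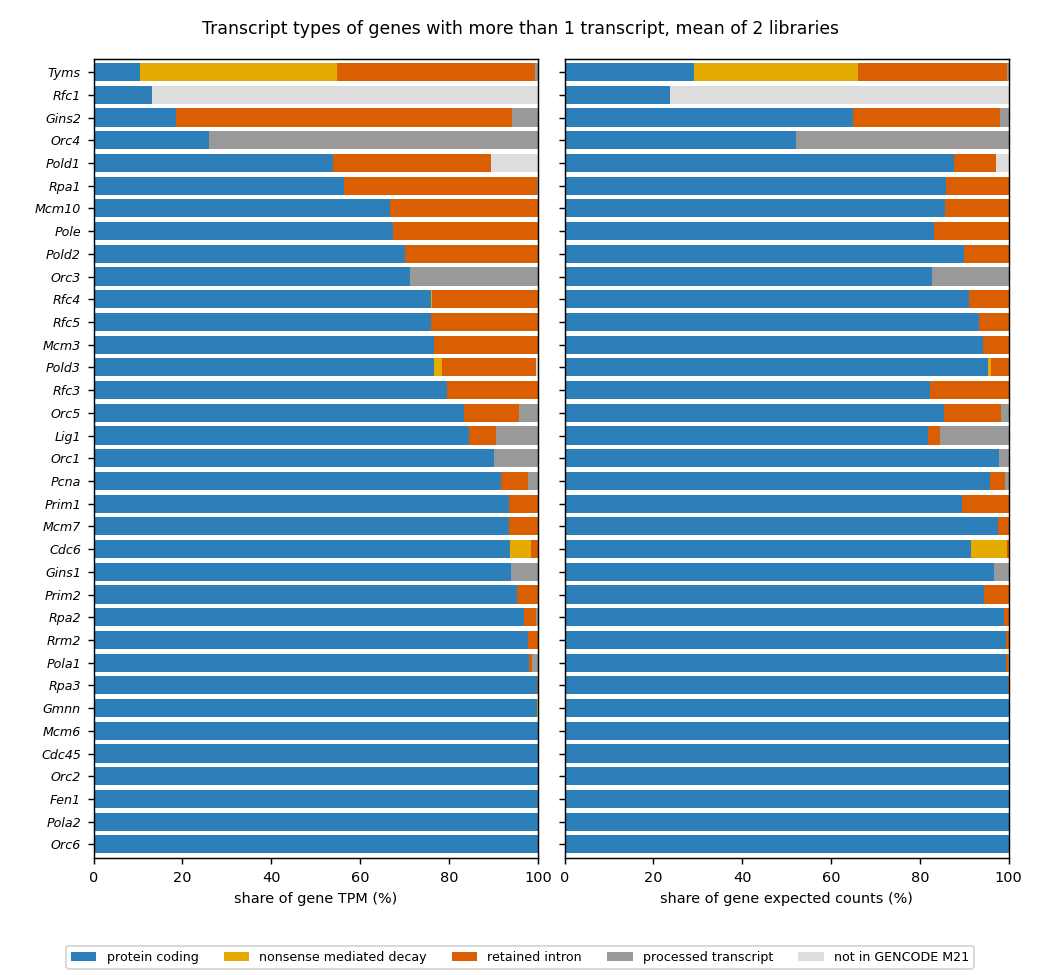
Share of each gene's TPM (left) and of its expected counts (right) by transcript type, as the mean of 2 libraries, for the 35 genes with more than 1 transcript, sorted by the protein-coding share of TPM. Tyms, Gins2 and Orc4 have less than 50% of TPM on protein-coding transcripts, while in counts Gins2 has 64.9% and Orc4 52.2%, and most of Rfc1 has no type.

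Stoichiometry within complexes depended on which transcripts were added up. Over protein-coding transcripts only, Gins2 fell from the highest GINS gene to the lowest, at 17.3 and 18.4 TPM, and the ratio of highest (Gins4) to lowest became 5.29 and 5.19. Tyms came to 27.9 and 27.7 TPM, and the nucleotide supply ratio went from 1.55 and 1.79 to 9.65 and 11.5. In the origin recognition complex Orc6 became highest, and Orc1 stayed lowest at 11.9 and 14.4 TPM, with a ratio of 7.52 and 6.56. In RPA, Rpa1 came to 59.2 and 61.9 TPM and the ratio to 2.66 and 2.76. Pole came to 18.4 and 25.2 TPM, below Pole2, so the order in polymerase epsilon reversed.

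MCM2-7 changed little: Mcm6 remained highest and the ratio was 2.07 and 2.10, with Mcm3 (127 and 128 TPM) in place of Mcm5 as the lowest. Pola1 remained the lowest of its complex at 15.9 and 16.6 TPM. Gmnn remained above Cdc6 and Cdt1, with a ratio to Cdt1 of 4.95 and 5.56. Pold1 was lowest of polymerase delta with both sets. The excess of Orc6 over Orc1, of Gmnn over Cdt1 and of Prim1 over Pola1 was therefore present with either set of transcripts.

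**Figure D5:**
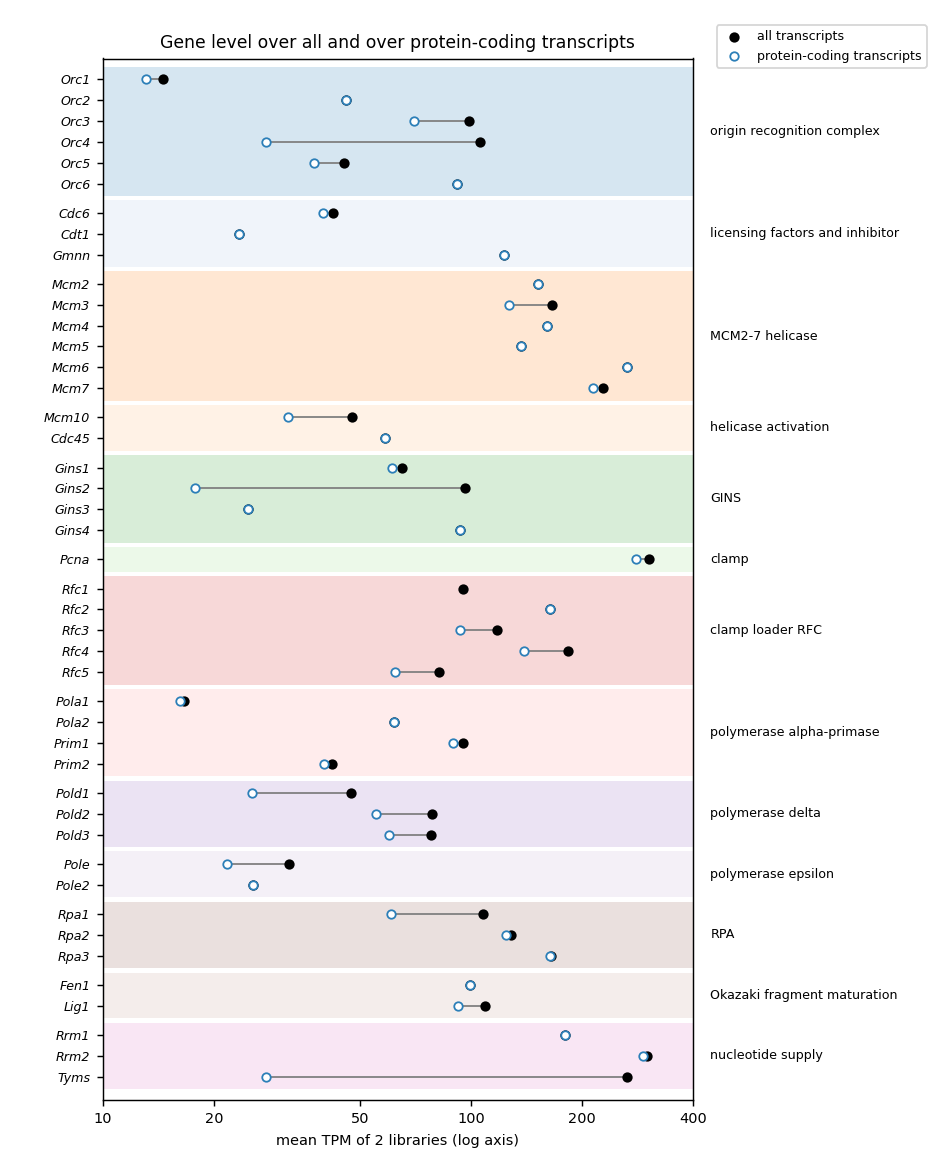
Mean TPM of 2 libraries (log axis) over all transcripts (black) and over protein-coding transcripts only (blue rings), joined by a line, for each gene by complex. Rfc1 is shown over all transcripts only because 6 of its 7 transcripts have no type. Tyms, Gins2 and Orc4 move most, and most MCM2-7 genes move little.

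Several members lie close to other genes, and whether the counting used strand was not given in the sources used here. An opposite-strand protein-coding gene overlaps 11 of the 44. The share of all protein-coding genes with such an overlap was not counted, so whether 11 is unusual is not known. The neighbours with the highest levels were Tmem258 (286 and 260 TPM) beside Fen1, Cops6 (220 and 204 TPM) beside Mcm7, Eif4a2 (209 and 210 TPM) beside Rfc4 and Vps35 (146 and 154 TPM) beside Orc6. Without strand, reads from an overlap cannot be placed by position alone, which applies to all 11 members. Genes on the same strand overlap some members too, and strand would not separate these. Among them were the transcribed pseudogene Gm15421 at Orc5 (9.76 and 6.89 TPM) and the protein-coding Gm20388 at Cdt1 (2.16 and 4.12 TPM). The authors' estimation error (posterior SD) was small, at most 0.38% of the count in any of the 44. Whether reads of a neighbour were counted to these members was not tested.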

How the data were processed

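Total RNA-seq of 2 pools was used as deposited: per gene and per transcript, the authors gave expected counts, TPM and the percent of each gene's TPM held by a transcript, with posterior means and SDs, against mm10 and GENCODE M4 per the file headers and labels. The aligner, the counting tool's settings and strand use were not given in the sources used here. GENCODE M21, built on that assembly, supplied symbols, transcript types and positions, and matched 98.0% of gene entries. The members and gene lists were chosen with earlier results of these data known.

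Totals were 30849058 and 31600302 expected counts. Expected counts were rounded to whole numbers, and TMM factors came from edgeR 4.0.16 (R 4.3.3). Library ratios have exact Clopper-Pearson 95% intervals, which cover counting error only. A difference of 1.2-fold served as a rule of size. The libraries differed by more than the sampling noise of counts (chi-square per degree of freedom 8.34 over 18163 genes), and both were counted as samples. No test between groups was possible with 1 group. Every member was named, with the highest and lowest of each complex and list, members whose leading transcript held under 50%, changed or was not coding, the 4 with the most transcripts, and the promoters with the most E2F cores. All levels include spike-in RNA in their scale, which held 15.4% and 15.8% of TPM. Alternatives were other scalings (DESeq2 1.42.0 size factors, total and spike-in counts), posterior means, mouse genes only, protein-coding transcripts only, and each library alone. Protein sequences were not analysed here. A gene of the nucleotide supply partner list is counted with its list but is not reported here.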

Additional observations from a re-analysis of the deposited data

How the results depend on the processing

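No paired analysis was possible because there is 1 group. The order within some complexes changed over protein-coding transcripts only: Pole2 then exceeded Pole, Fen1 exceeded Lig1, and Gins2 went from the highest to the lowest GINS gene. The median level of the members was 113.7 TPM when TPM was rescaled to mouse genes only and 62.0 TPM over protein-coding transcripts only, and 93.5 to 98.7 TPM over the libraries taken alone. Over protein-coding transcripts only, the ratio of highest to lowest was 1.84 for helicase activation, 5.24 for GINS, 13.4 for the clamp loader, 5.49 for polymerase alpha-primase and 2.36 for polymerase delta. It was 1.18 for polymerase epsilon, 2.71 for RPA, 1.08 for the Okazaki fragment enzymes and 10.6 for nucleotide supply. The clamp loader value rests on Rfc1, most of whose transcripts have no type, and without Rfc1, a setting chosen after seeing the data, it was 2.64. With posterior mean TPM the ratio was 6.81 for the origin recognition complex and 1.199 for helicase activation. Members differing 1.2-fold or more between libraries numbered 1 after scaling by total counts, 1 after scaling by spike-in RNA and 0 at a threshold of 1.5-fold, against 3, and Pole2 was the gene kept under both scalings. The protein-coding share was 94.3% by counts, and 92.3% to 92.7% of TPM over the libraries taken alone. Where a value moved, the cause was not tested beyond what the setting itself leaves out. With 2 pools the SD rests on 1 difference.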
